A study of Mus musculus with 29 samples.

Results

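Cytokines, chemokines and their receptors were followed in the tibialis anterior (TA), a fast hindlimb muscle, of ageing mice. A gene was a member if its symbol in the count table began with Ccl, Ccr, Cxcl, Cxcr, Ackr or Il followed by a number, or with Cx3c. The rule found 142 members among 22537 genes. A member counted as measured when at least 1 of the 29 libraries held 10 reads or more, which left 87 measured members and 55 that were not measured. The mice were male C57BL/6 animals from an ageing colony, untreated, and grouped only by age: 7 mice of 6 months (6m), 7 of 24 months (24m) and 8 of 28 months or more (28m). RNA came from the whole muscle of each mouse, so fewer cells of a type and less RNA per cell cannot be told apart. Libraries from the 6m mice were made and sequenced 2 times, in the first run beside the 24m mice and in the second run beside the 28m mice. Each older group was compared with the 6m libraries of its own run, and the replicate number of a 6m library names the same mouse in both runs.

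Chemokines are small secreted proteins that direct the migration of leukocytes through G protein-coupled receptors. Interleukins signal through receptor chains that pair with shared subunits, such as gp130 for the interleukin 6 family, the common gamma chain for interleukins 2, 7 and 15, and the accessory chain Il1rap for the interleukin 1 family. In skeletal muscle, resident macrophages, endothelial cells, fibro-adipogenic cells and the fibres themselves all make or sense some of them, and the ligands of infiltrating monocytes are best known from injured muscle.

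The libraries held between 17633475 and 33499162 counted reads. Levels are given in CPM, the reads of a gene relative to all counted reads of its library, scaled by TMM over the 29 libraries. The summed fast fibre markers lay between 79833 and 134378 CPM and the slow fibre markers between 11.5 and 114. Some libraries stood apart before any comparison. The summed macrophage markers (10 of 11 listed genes in the table, none at 0 throughout) reached 737 CPM in 28m replicate 7, against 94.7 to 140 in the other 28m mice. They reached 634 CPM in 24m replicate 2 and 333 in the next mouse of that age, while the 6m libraries held 72.3 to 242. Each library's deviation from the mean of all libraries was also related to transcript length across genes. Spearman's rho lay between -0.533 and -0.175 in the 28m libraries and between -0.139 and 0.123 in those of the 6m mice beside them. In the first run it ran from -0.406, in 24m replicate 4, to 0.193 at 24m and from -0.547, in 6m replicate 4, to 0.372 at 6m. Genes are not independent replicates, so these values describe the libraries only.

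The 55 members that were not measured included most cytokines of T cells. Il2, Il3, Il4, Il9, Il13, Il17a, Il17b, Il17c, Il17f, Il21, Il22, Il23a, Il25, Il27, Il31, Il1a, Il19, Il20, Il24, Il28a, Il28b and the epidermal interleukin 1 relatives Il1f5, Il1f6, Il1f8, Il1f9 and Il1f10 stayed under 10 reads in every library. Among the chemokines these were Ccl1, Ccl20, Ccl21a, Ccl21b, Ccl21c, Ccl26, Ccl27b, Cxcl3, Cxcl15 and Cxcl17. Among the receptors they were Ccr1l1, Ccr3, Ccr4, Ccr6, Ccr8, Cxcr1, Il5ra, Il9r, Il11ra2, Il13ra2, Il17rb, Il20ra, Il22ra1, Il22ra2, Il23r, Il28ra, Il31ra, Il1rapl1 and Il1rapl2. Ccl21a, Ccl21b and Ccl21c, Ccl27a and Ccl27b, Il11ra1 and Il11ra2, and Il28a and Il28b are near-identical copies, and reads that fit several copies may be missing from them or split. The table uses older symbols, so the atypical receptor Ackr3 stands as Cxcr7 and no row bears the name Ackr.

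Levels between members were compared as CPM per kilobase of exon, by the median over the 29 libraries. Cxcl14, a chemokine of epithelia and connective tissue, was highest at 31.5 CPM per kilobase. It was followed by Il6st, the shared gp130 subunit, at 17.2, the eosinophil chemokine Ccl11 at 14.2, and Cxcl12, the stromal ligand of Cxcr4, at 11.3. The Cxcl12-binding receptor Cxcr7 had 5.18, the interleukin 11 receptor Il11ra1 5.0, the monocyte-attracting Ccl6 4.17, Il15 3.48, the macrophage growth factor Il34 2.68 and Ccl8 2.65 CPM per kilobase. Ranges of neighbours in this order overlapped: Cxcl14 spanned 20.5 to 48.8, Il6st 7.85 to 23.8 and Ccl11 6.48 to 32.8 CPM per kilobase. Ccl8 ran from 0.31 to 27.7 CPM per kilobase.

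**Figure D1:**
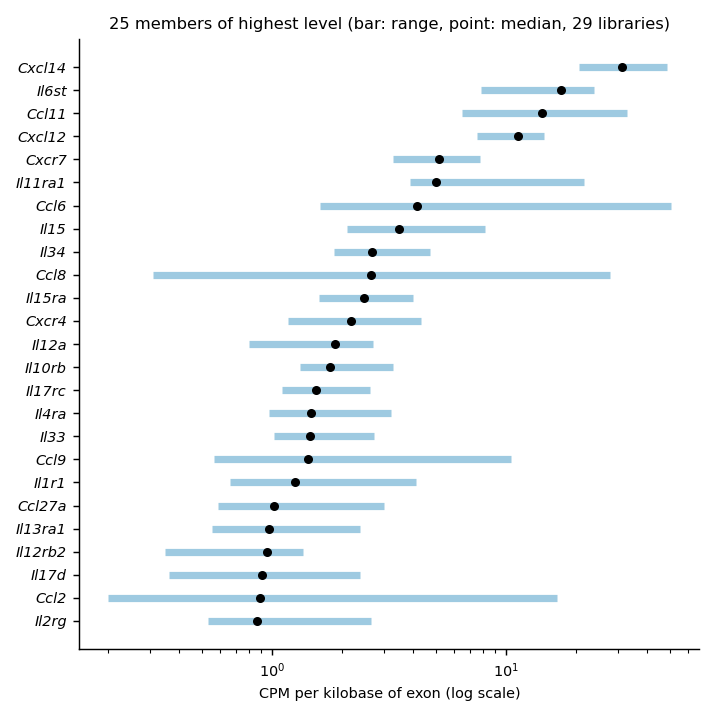
Horizontal bars give the range and black points the median of CPM per kilobase of exon (log axis) over the 29 libraries for the 25 members of highest median. Cxcl14 leads at 31.5, and the bars of Ccl6, Ccl8, Ccl9 and Ccl2 are far longer than those of Cxcl12 or Il15ra.

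At 28m, 57 members passed a filter on low counts and were tested, and 21 changed (edgeR's quasi-likelihood test, Benjamini-Hochberg adjusted p under 0.05 over all genes tested). That is 36.8% of the tested members, where 47.3% of all tested genes passed. Of the 57, 9 reached 10 reads in at least 7 libraries at 28m but not at 6m and 1, Il1rl2, at 6m but not at 28m, so that low members could enter through the age at which they were high. Higher at 28m were 11 members, where 24.3% of all genes rose: Cxcl10, Ccl2, Ccl8, Cxcr5, Il3ra, Ccl27a, Cx3cl1, Il11ra1, Il15, Il34 and Il15ra. Lower were 10, where 22.9% of all genes fell: Il1rl2, Il1r1, Il17rd, Il6st, Il12rb2, Il2ra, Il1rap, Cxcl14, Cxcl12 and Il16. Of these, 6 also changed at least 2-fold (an absolute log2 fold change of 1 or more), where 5.7% of all genes did: Cxcl10, Ccl2, Ccl8 and Cxcr5 upward, Il1rl2 and Il1r1 downward. The median log2 fold change was 0.26 over the tested members and 0.01 over all tested genes. By class, 3 of 10 tested CC chemokines rose and none fell, and 2 of 9 tested CXC and CX3C chemokines rose and 2 fell. No tested receptor of the interleukin 1 family rose and 3 of 5 fell. The shares of all genes were those above, 24.3% higher and 22.9% lower. Exons summed to 2377 bases at the median of the members that rose and to 7339 at that of the members that fell, and the rho with length was negative in every 28m library (above). With a trend on length and GC content removed from each library, 16 members were called, 13 of them among the 21 and the others Il1r2, Ccl11 and Ccl25, where 37.0% of all genes were called. With the 6m libraries of the other run in their place, 13 members were called, where 23% of all genes were. DESeq2 and a fit without a filter on low counts called 26 and 27 members. In every other fit that tested them, those without single mice included, 8 of the 21 were called: Cxcl10, Il15ra, Cxcl14, Il12rb2, Il17rd, Il1r1, Il1rl2 and Il6st. Beside the fits without single mice, Il1rl2 had enough reads in 8 of 11 and Cxcl10 in 10. Without single mice Il18bp, Cxcl9, Ccl7, Il1rl1, Ccl25, Ccr2 and Cx3cr1 were each called in 1 fit.

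**Figure D2:**
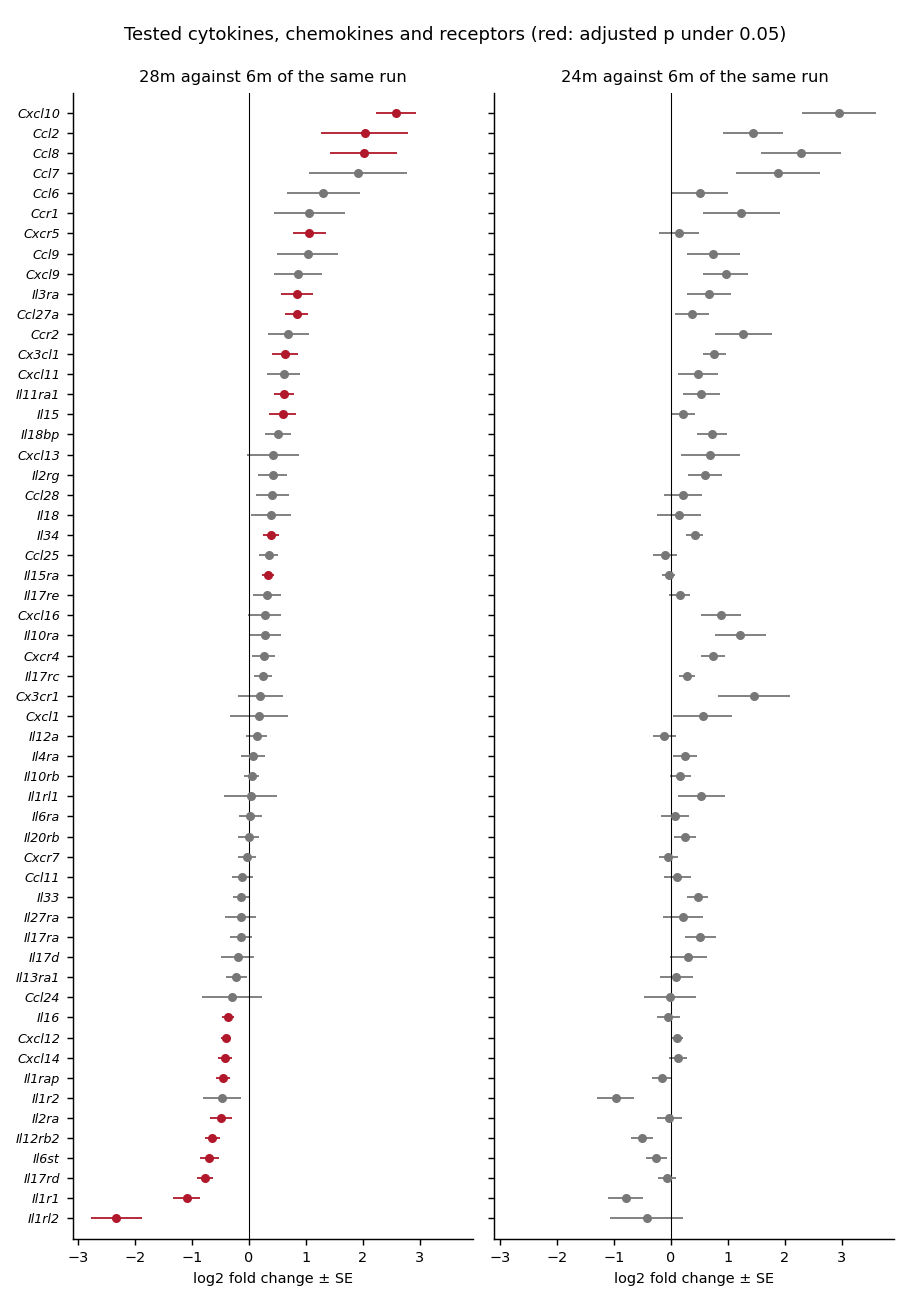
Points give the log2 fold change and bars its standard error for the tested members, at 28m (left) and 24m (right) against the 6m libraries of the same run, and red marks an adjusted p under 0.05. At 28m, 11 red points lie right of 0 and 10 left of it, while at 24m no point is red although Cxcl10, Ccl8 and Ccl7 lie about as far right as at 28m.

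Cxcl10, a chemokine induced by interferon that attracts T cells through Cxcr3, had the largest rise among the 57 members that passed the filter on low counts. In the 6m mice of the second run it had 0.18 CPM at the lowest, 0.40 at the median and 0.88 at the highest. In the 28m mice the same values were 0.95, 2.93 and 3.88 CPM. All 8 old mice thus lay above all 7 young mice of their run, which held for 2 of the 57 members, Cxcl10 and Ccl27a, and for 6.21% of all tested genes. The log2 fold change was 2.58 ± 0.35 (SE; adjusted p = 0.000232, edgeR), and it stayed between 2.26 and 2.62 in the 10 other fits that used all mice and tested it. At least 10 reads were held by all 8 of the 28m libraries and by 3 of the 7 young ones, so that it passed the filter through the old mice, and without a filter it was 2.57 (adjusted p = 0.00019). The highest 6m library of the first run, with 1.12 CPM, lay above the lowest 28m mouse. In 28m replicate 7, where the macrophage markers were highest, Cxcl10 had 2.998 CPM and was not the highest of its group. It shares 5.91% of its exons with Art3 on the other strand, which had a median of 195 CPM and did not pass (0.33 ± 0.17, adjusted p = 0.12).

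The neighbours of Cxcl10 on chromosome 5 encode the other ligands of Cxcr3. Cxcl9 (chr5:92321347-92328079, GRCm38) had a median of 1.23 CPM in the 6m mice and 1.76 in the 28m mice, which ranged from 0.49 to 5.87 (log2 fold change 0.86 ± 0.42, adjusted p = 0.103, edgeR). Cxcl11 (chr5:92359544-92365485), which the annotation lists as a polymorphic pseudogene and which shares 41.7% of its exons with the pseudogene Gm2673 on the other strand, went from a median of 0.28 to 0.47 CPM (0.61 ± 0.29, adjusted p = 0.0913, edgeR). Neither passed the threshold, and in both the old mice overlapped the young. Cxcl9 passed without 28m replicate 4 (1.02, adjusted p = 0.0356). Cxcr3 itself did not pass the count filter of this fit, having 1 to 4 reads in the young libraries of that run and 3 to 10 in the old, and was called higher without it, in DESeq2 (log2 fold change 1.47, adjusted p = 0.0244) and in edgeR (1.40, adjusted p = 0.0108).

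The sequences before the start of Cxcl10 and of a pair of contrasting chemokines show which letters of known inflammatory elements they hold. Promoter sequences of RefSeq (GRCm38.p6) were matched for 64 of the 87 measured members, with 80 promoters, and the 250 bases before each start were searched on both strands. The motifs were GAAA and GAAA with 2 bases between them, the core of the interferon-stimulated response element, TTC and GAA with 3 bases between them, the core bound by STAT dimers, and GGG and CC with 5 bases between them, a loose form of the kappaB site that other G-rich sequence also fits. They occurred in 2.98%, 7.02% and 45.8% of the 32851 promoters in that table. Among the 80 promoters of members they occurred in 3, 6 and 38, or 3.75%, 7.5% and 47.5%. Ccl19, Cxcl10 and Cxcl14 held the first of these, and Cxcl10 was the only 1 of the 3 that rose at 28m, while Cxcl14 fell and Ccl19 did not pass the count filter. Below, read 5′ to 3′ on the strand of the gene, capitals mark every match. Cxcl10 (chr5:92348890-92349139, minus strand) is shown because it had the largest rise among the filtered members, Cxcl14 (chr13:56296552-56296801, minus strand) because it shares the first motif but fell, and Ccl8 (chr11:82114935-82115184, plus strand) because it rose with no match. A match of letters describes the sequence only.
Cxcl10: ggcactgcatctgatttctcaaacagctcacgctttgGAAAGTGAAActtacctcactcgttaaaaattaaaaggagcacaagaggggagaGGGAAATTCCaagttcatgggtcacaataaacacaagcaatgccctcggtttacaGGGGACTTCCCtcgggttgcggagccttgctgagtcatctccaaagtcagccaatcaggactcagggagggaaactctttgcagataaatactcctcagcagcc
Cxcl14: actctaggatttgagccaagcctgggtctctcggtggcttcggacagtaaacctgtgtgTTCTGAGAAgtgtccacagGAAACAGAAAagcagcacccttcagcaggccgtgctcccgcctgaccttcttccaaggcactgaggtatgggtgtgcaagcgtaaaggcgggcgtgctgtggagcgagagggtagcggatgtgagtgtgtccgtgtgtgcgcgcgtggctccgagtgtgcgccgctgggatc
Ccl8: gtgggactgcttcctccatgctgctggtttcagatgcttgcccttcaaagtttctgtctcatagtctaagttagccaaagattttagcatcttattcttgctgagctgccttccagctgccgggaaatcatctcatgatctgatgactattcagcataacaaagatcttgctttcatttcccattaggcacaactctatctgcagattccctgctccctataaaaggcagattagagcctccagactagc
The last capital stretch of Cxcl10 is a run of overlapping kappaB matches, and the element nearest its 5′ end is the interferon-response core.

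The monocyte chemokines Ccl2, Ccl7, Ccl12 and Ccl8 lie within 1 cluster on chromosome 11 (chr11:82035571-82037453 for Ccl2 to chr11:82115185-82116799 for Ccl8), which also holds Ccl11. Ccl8 had 0.24, 0.88 and 2.06 CPM at the lowest, median and highest 6m mouse and 1.05, 2.40 and 13.7 CPM at 28m. Its log2 fold change was 2.02 ± 0.59 (adjusted p = 0.0113, edgeR), and 5 of 8 old mice lay above every 6m mouse. Ccl8 reached 10 reads in all 8 of the 28m libraries and 5 of the 7 young ones, and was called without a filter too (adjusted p = 0.0122). Without 28m replicate 7 it was 1.37 (adjusted p = 0.0255), so the call did not rest on that mouse. It was 1.04 (adjusted p = 0.0743) once the length trend was removed, and its adjusted p was 0.067 in limma-voom with the mouse as a block.

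Ccl2, the main ligand of Ccr2 on monocytes, had 0.23, 0.54 and 1.66 CPM at the lowest, median and highest 6m mouse and 0.55, 1.54 and 18.9 CPM at 28m. It reached 10 reads in all 8 of the 28m libraries and 4 of the 7 young ones. The second highest 28m mouse had 1.998 CPM, and 4 of 8 old mice lay above every 6m mouse. Its log2 fold change of 2.03 ± 0.76 (adjusted p = 0.0380, edgeR) fell to 0.63 (adjusted p = 0.252) without 28m replicate 7. The call was also lost without 6m replicate 1, 3, 4, 5 or 7, and in limma-voom both without a block and with the mouse as a block (adjusted p = 0.102 with it). DESeq2 (0.213) and the fit with the length trend removed (0.156) lost it too, but not the fit without a filter on low counts (0.0430). Ccl7, a further Ccr2 ligand, gave a log2 fold change of 1.91 ± 0.86 (adjusted p = 0.0762), and 0.35 without that mouse, and passed without 28m replicate 6 (2.09, adjusted p = 0.0462). Ccl11 did not follow its neighbours: its medians were 15.4 CPM at 6m and 14.4 at 28m (log2 fold change -0.12 ± 0.18, adjusted p = 0.608). With the length trend removed it was called lower (-0.78, adjusted p = 0.000562).

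The second chromosome 11 cluster holds Ccl5, Ccl9, Ccl6, Ccl3 and Ccl4 and takes in ligands of Ccr1. Ccl6 ranged from 4.85 to 12.4 CPM in 7 of the 28m mice and reached 91.2 in replicate 7, against 3.27 to 10.7 at 6m. Its log2 fold change of 1.30 ± 0.65 (adjusted p = 0.105, edgeR) became 0.01 without that mouse. Ccl9 behaved alike, with 31.9 CPM in replicate 7 and at most 6.83 in the others (1.03 ± 0.53, adjusted p = 0.119, and 0.17 without it). The receptor Ccr1 had 4.87 CPM in replicate 7 and at most 0.885 in the other 28m mice, and its log2 fold change of 1.06 ± 0.62 (adjusted p = 0.167) was -0.01 without it. For Ccr2, the monocyte receptor of Ccl2, the 28m median was 6.72 CPM and the 6m median 3.33 (0.69 ± 0.35, adjusted p = 0.116). Its log2 fold change was 0.37 without 28m replicate 7 and 0.997 without 6m replicate 2, where it was called (adjusted p = 0.0266). Across the group 28m replicate 7 was the highest mouse in 26 of the 57 tested members, 45.6%, and in 16.9% of all tested genes. Of the 10 tested macrophage markers none passed as higher at 28m and 2, Cd163 and Mertk, passed as lower, with a median log2 fold change of 0.71 over the list. The part of macrophage content in these members was not tested.

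**Figure D3:**
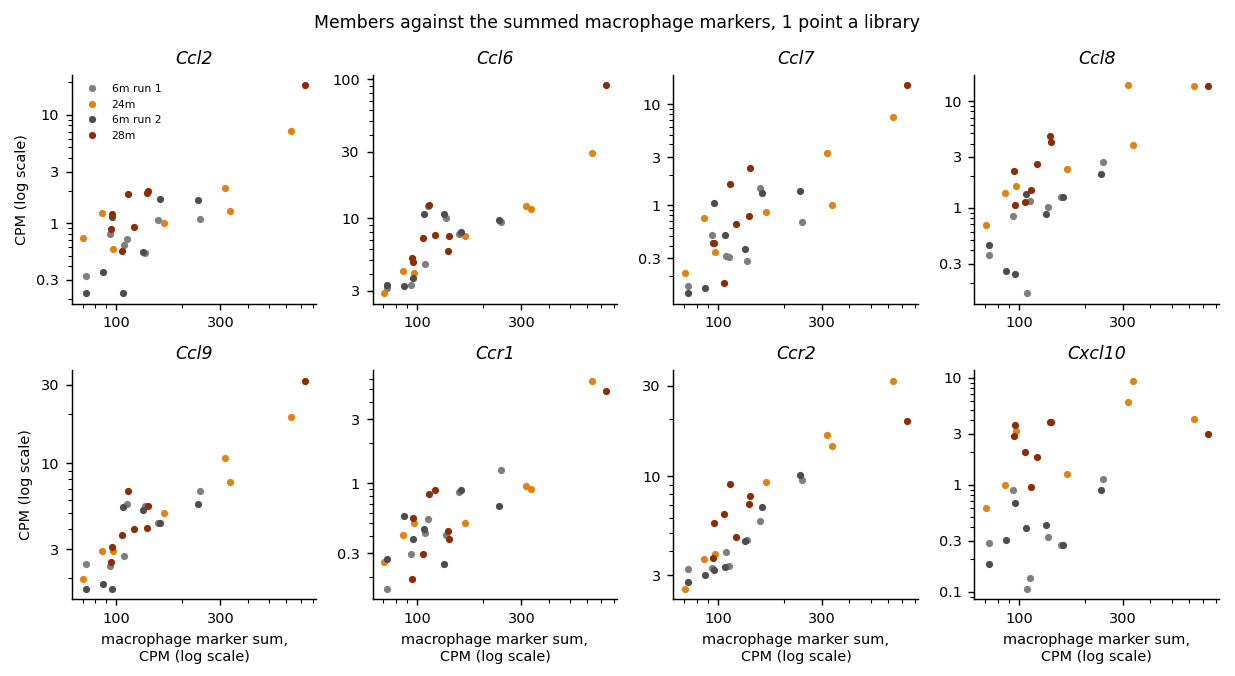
Each point is 1 library, with the summed CPM of the macrophage markers on the x axis and the CPM of a member on the y axis (both log axes), coloured by group. The rightmost points, 28m replicate 7 at 737 and 24m replicate 2 at 634, are also the highest for Ccl2, Ccl6, Ccl7, Ccl9, Ccr1 and Ccr2, whereas Cxcl10 is as high in several libraries with a small marker sum.

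Among the remaining chemokines Ccl27a, a ligand of Ccr10 known from skin, was higher in all 8 old mice than in any 6m mouse of the second run. It had 1.64, 1.81 and 2.43 CPM at the lowest, median and highest 6m mouse and 2.47, 2.97 and 5.73 at 28m (log2 fold change 0.84 ± 0.20, adjusted p = 0.00411, edgeR). In the first-run 6m libraries it had 1.39 to 4.23 CPM, which overlaps the 28m range. It ends on the opposite strand of Il11ra1, the receptor chain for interleukin 11 (Il11ra1 chr4:41699989-41769474, Ccl27a chr4:41769467-41774247), and their exons share 8 bases. Il11ra1 rose as well, from a median of 19.98 to 28.9 CPM, with 6 of 8 old mice above every 6m mouse (0.61 ± 0.18, adjusted p = 0.0106). Strand use in the counting is not stated, and both genes have near-identical copies, so reads between them and their copies may not be fully told apart. Against the first-run 6m libraries the calls of Ccl27a (adjusted p = 0.0702) and Il11ra1 (0.0866) were lost, and that of Il11ra1 also in the fit with the mouse as a block (0.0707). Ccr10, the receptor of Ccl27a, stayed at 3 to 12 reads at 6m and 0 to 10 at 28m.

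Cx3cl1, the membrane-bound ligand of Cx3cr1, rose from a median of 2.85 CPM at 6m to 4.36 at 28m. The 28m mice ranged from 2.28 to 7.59 CPM, with 4 above every 6m mouse and 1 below (log2 fold change 0.62 ± 0.23, adjusted p = 0.0332, edgeR). The call was lost without 28m replicate 5, 7 or 8 or without 6m replicate 1, 2, 4 or 5 (adjusted p up to 0.0638). It was also lost in limma-voom and in the fit with the mouse as a block (0.0575). Its receptor Cx3cr1, a marker of patrolling monocytes and resident macrophages, had medians of 0.45 and 0.65 CPM (0.20 ± 0.40, adjusted p = 0.69). Without 6m replicate 2, which had 1.89 CPM, its log2 fold change was 0.82 (adjusted p = 0.0357). Cxcr5, a receptor of follicular B cells, rose from a median of 0.63 to 1.17 CPM (1.06 ± 0.29, adjusted p = 0.0081), with 4 of 8 old mice above every 6m mouse. Its ligand Cxcl13 had medians of 0.45 and 1.13 CPM (0.42 ± 0.45, adjusted p = 0.452). The B cell markers summed to 0.30 to 2.59 CPM at 28m and 0.73 to 2.16 at 6m. Cxcr5 shares 3.30% of its exons with Bcl9l on the other strand, which fell (-0.81 ± 0.24, adjusted p = 0.0115), and its call was lost against the first-run 6m libraries (0.0981).

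Cxcl12 and Cxcl14, which are among the most abundant members, were lower at 28m. Cxcl12 had 92.1, 97.4 and 109 CPM at the lowest, median and highest 6m mouse and 61.2, 76.2 and 96.4 at 28m, so that 7 of 8 old mice lay below every young mouse. The log2 fold change was -0.40 ± 0.09 (adjusted p = 0.00278, edgeR), and -0.03 (adjusted p = 0.816) with the length trend removed. Cxcl14 had 46.6, 59.9 and 69.2 CPM at 6m and 37.5, 43.7 and 54.6 at 28m, with 5 of 8 old mice below the 6m range (-0.42 ± 0.12, adjusted p = 0.00871). Unlike Cxcl12 it was lower by more, at -0.71, with the trend removed. The receptors of Cxcl12 did not pass the threshold: Cxcr4 had a log2 fold change of 0.26 ± 0.20 (adjusted p = 0.286) and Cxcr7 of -0.04 ± 0.16 (adjusted p = 0.851). Markers of stromal and vascular cells also moved. Of 8 fibroblast and fibro-adipogenic progenitor markers, all tested and none at 0 throughout, 3 fell (Pdgfra by 0.92, Col1a1 by 1.88 and Col3a1 by 1.58 on the log2 scale) and Ly6a rose by 0.61, and their sum was 381 to 1306 CPM at 28m and 612 to 2884 at 6m. Of 5 smooth muscle and pericyte markers, likewise all tested, 3 fell (Myh11 by 0.72, Rgs5 by 1.23 and Pdgfrb by 0.49) and Tagln rose by 0.58, with sums of 194 to 320.0 and 300.2 to 362 CPM. Endothelial markers fell in 7 of 8, with sums of 248 to 414 CPM at 28m and 483 to 551 at 6m. The part of these cells in the values of Cxcl12, Cxcl14, Il1r1 and Il6st was not tested.

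**Figure D4:**
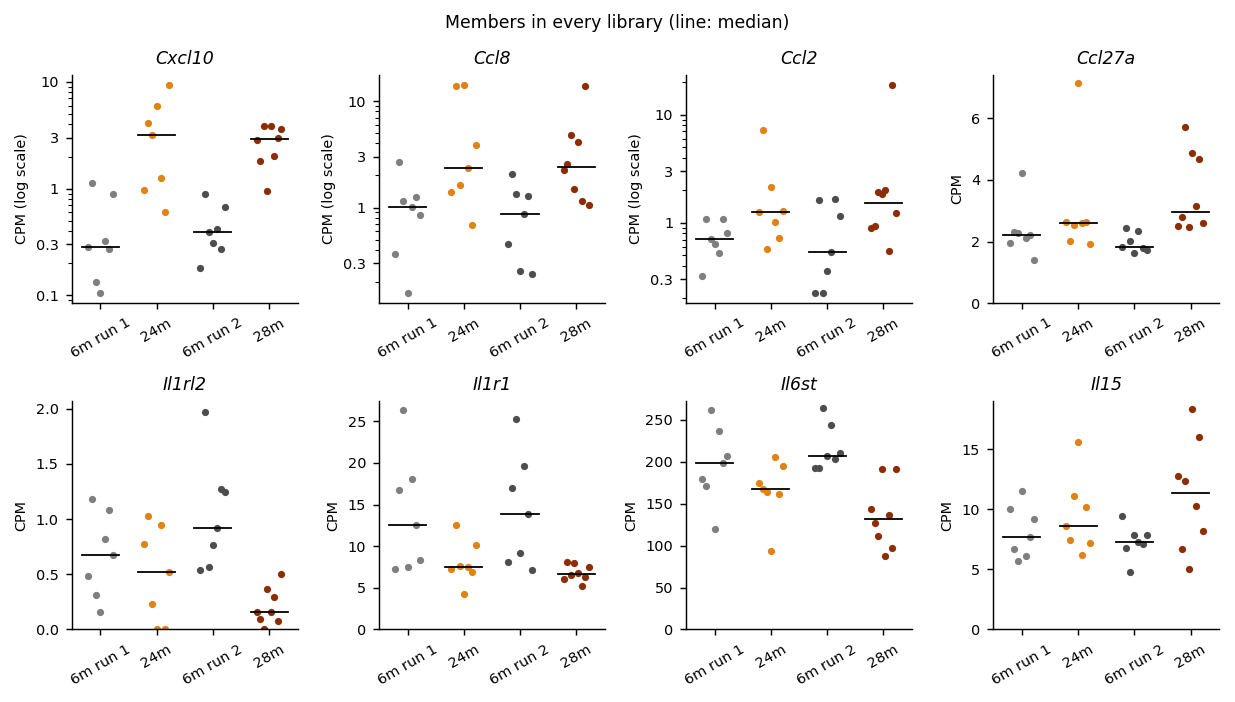
Points give CPM in each library of 8 members by group and black lines the group median, on a log axis for Cxcl10, Ccl8 and Ccl2 and on a linear axis from 0 for the others. All 28m points of Cxcl10 and Ccl27a lie above those of the 6m mice of the second run, all of Il1rl2 and Il6st lie below them, and 1 point of Ccl2 at 28m stands at 18.9.

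The receptors of the interleukin 1 family fell together in part. Il1r2, Il1r1, Il1rl2, Il1rl1, Il18r1 and Il18rap follow each other on chromosome 1, all on the plus strand (chr1:40074079-40125231 for Il1r2 to chr1:40515362-40551705 for Il18rap). Il1rl2, the receptor for interleukin 36, had 0.54, 0.92 and 1.97 CPM at the lowest, median and highest 6m mouse and 0, 0.15 and 0.51 at 28m. All 8 old mice lay below all 7 young ones, which held for 3 of the 57 members, Il1rl2, Il6st and Il12rb2, and for 6.18% of all tested genes. The log2 fold change was -2.33 ± 0.45 (adjusted p = 0.0012, edgeR), on counts of 10 to 47 reads at 6m and 0 to 12 at 28m. It passed the filter through the 6m libraries, all 7 of which held at least 10 reads against 1 of 8 at 28m, and fell under it after thinning to the smallest library. Without a filter it was called as well (-2.33, adjusted p = 0.00134). In the 6m libraries of the first run it had 3 to 36 reads and 0.16 to 1.18 CPM, which overlaps the 28m range, and it could not be tested against them.

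Il1r1, the signalling receptor for interleukin 1, had 7.11, 13.9 and 25.3 CPM at the lowest, median and highest 6m mouse and 5.23, 6.62 and 8.11 at 28m. Its log2 fold change was -1.10 ± 0.23 (adjusted p = 0.00215, edgeR), with 5 of 8 old mice below every young mouse. The old mice were close together, while the 6m mice spanned 3.55-fold in this run and 3.64-fold in the other. Il1rap, the accessory chain that both of these receptors need, fell from a median of 2.91 to 2.25 CPM (-0.46 ± 0.12, adjusted p = 0.00755), but not against the first-run 6m libraries (adjusted p = 0.0625) or with the length trend removed (-0.10, adjusted p = 0.518). Il1rl1, the interleukin 33 receptor that also pairs with Il1rap, had 0.617 to 0.845 CPM in 7 of the 28m mice, all below the 6m range of 0.847 to 1.85, and 5.25 in replicate 7. With that mouse its log2 fold change was 0.03 ± 0.46 (adjusted p = 0.963), and without it -0.81 (adjusted p = 0.00378). DESeq2 called it lower (-0.76, adjusted p = 0.00241), near the edgeR value without replicate 7. Its defaults can replace outlying counts in groups of this size, so the count of that mouse may not have entered as measured. The decoy receptor Il1r2 had a log2 fold change of -0.47 ± 0.33 (adjusted p = 0.243), and of -0.84 (adjusted p = 0.0381) with the length trend removed. Among the ligands and inhibitors, Il33 (-0.14 ± 0.15, adjusted p = 0.46), Il18 (0.39 ± 0.35, adjusted p = 0.362) and the soluble inhibitor Il18bp (0.51 ± 0.23, adjusted p = 0.0774) did not pass.

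Il6st, through which interleukins 6 and 11 and leukaemia inhibitory factor signal, was lower in all 8 old mice than in any young mouse of the run. It had 192.5, 207.1 and 263.7 CPM at the lowest, median and highest 6m mouse and 87.1, 131.8 and 191.7 at 28m, so the groups met closely without overlap. In the first-run 6m libraries replicates 4, 2 and 1, at 120.3, 171.1 and 178.9 CPM, lay below the highest 28m mouse. The log2 fold change was -0.70 ± 0.16 (adjusted p = 0.00335, edgeR), and -0.31 (adjusted p = 0.0365) with the length trend removed from this transcript of 11099 bases. Il6ra, the interleukin 6 receptor chain, had medians of 4.15 and 3.71 CPM (0.02 ± 0.20, adjusted p = 0.93), and Il27ra, which pairs with Il6st for interleukin 27, did not pass (-0.14 ± 0.27, adjusted p = 0.679). The related receptor Lifr fell (-0.59 ± 0.10, adjusted p = 0.000542).

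Il15 and its presenting receptor chain Il15ra were both higher at 28m. Il15ra had 9.21, 10.6 and 11.9 CPM at the lowest, median and highest 6m mouse and 9.999, 14.1 and 17.8 at 28m, with 6 of 8 old mice above the 6m range (log2 fold change 0.34 ± 0.11, adjusted p = 0.017, edgeR). Il15, which muscle fibres make, had 4.74, 7.26 and 9.45 CPM at 6m and 5.06, 11.3 and 18.3 at 28m (0.59 ± 0.23, adjusted p = 0.0463). Its call was kept only without 28m replicate 2, 4 or 8 or 6m replicate 1 when single mice were left out, and its adjusted p was 0.167 against the first-run 6m libraries, 0.27 with the length trend removed and 0.0816 with the mouse as a block. The call was also lost in limma-voom, without a filter on low counts and after thinning. Il2ra, which lies just before Il15ra on chromosome 2 (chr2:11642807-11693193 and chr2:11705290-11734317), moved the other way. Its medians were 1.29 and 0.88 CPM (-0.49 ± 0.19, adjusted p = 0.0462), with 3 of 8 old mice below the 6m range. This call was kept only without 28m replicate 3, 6 or 7 or 6m replicate 4 (adjusted p up to 0.0917), and was lost with the mouse as a block (0.102), in DESeq2 (0.0587), against the first-run 6m libraries (0.07) and with the length trend removed (0.165). The common gamma chain Il2rg did not pass (0.42 ± 0.25, adjusted p = 0.177), nor did the interleukin 4 receptor Il4ra (0.07 ± 0.21, adjusted p = 0.792).

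The other members that changed were receptors and growth factors of several families. Il17rd, a member of the interleukin 17 receptor family known to restrain fibroblast growth factor signalling, had 6.01, 7.45 and 8.27 CPM at the lowest, median and highest 6m mouse and 3.61, 3.82 and 6.41 at 28m. Its log2 fold change was -0.77 ± 0.14 (adjusted p = 0.00104, edgeR), with 7 of 8 old mice below every young mouse, and -0.33 (adjusted p = 0.0202) with the length trend removed. The other tested genes of that family, Il17ra, Il17rc, Il17re and Il17d, did not pass. Il12rb2, an interleukin 12 receptor chain, had 3.69, 4.07 and 4.97 CPM at 6m and 1.87, 2.78 and 3.59 at 28m, without overlap (-0.64 ± 0.13, adjusted p = 0.00199). It shares 40.0% of its exons with Serbp1 on the other strand, an RNA-binding protein gene with a median of 361 CPM that rose (0.40 ± 0.10, adjusted p = 0.00466), so the reads of both may not be fully told apart. The interleukin 12 subunit Il12a did not pass (0.13 ± 0.19, adjusted p = 0.575).

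Il3ra, the interleukin 3 receptor chain, had 1.30, 2.08 and 2.196 CPM at 6m and 1.52, 2.86 and 7.31 at 28m, with 7 of 8 old mice above every young mouse (0.85 ± 0.28, adjusted p = 0.0198, edgeR). Its call was lost against the first-run 6m libraries (adjusted p = 0.0858), in limma-voom and with the mouse as a block (0.116). Il34, a ligand of the macrophage receptor Csf1r, rose from a median of 5.25 to 6.95 CPM (0.39 ± 0.14, adjusted p = 0.0306). That call was lost without 28m replicate 2 or 7 or 6m replicate 3 or 5 (adjusted p up to 0.067) and with the length trend removed (0.12, adjusted p = 0.413). Csf1, the other ligand of that receptor, fell (-0.39 ± 0.14, adjusted p = 0.0313), while Csf1r itself did not pass (-0.40 ± 0.32, adjusted p = 0.304). Il16, a chemoattractant of CD4 cells, fell from a median of 5.17 to 4.002 CPM (-0.37 ± 0.11, adjusted p = 0.0108). With the length trend removed from its 7865 bases it was 0.02 (adjusted p = 0.924), and with the mouse as a block the adjusted p was 0.0891. It shares 15.3% of its exons with Stard5 on the other strand.

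The tested members not described above passed at neither age. At 28m Ccl25, a thymic chemokine, had a log2 fold change of 0.34 ± 0.16, the epithelial Ccl28 0.41 ± 0.29, the eosinophil chemokine Ccl24 -0.29 ± 0.53 and Cxcl16, the ligand of Cxcr6, 0.28 ± 0.29. The shared interleukin 10 chain Il10rb had 0.05 ± 0.13, Il10ra 0.28 ± 0.28, the interleukin 13 chain Il13ra1 -0.22 ± 0.19 and Il20rb, of the interleukin 20 receptors, -0.01 ± 0.19. Their adjusted p ran from 0.0926 to 0.98 (edgeR). With the length trend removed Ccl25 was called higher (0.54, adjusted p = 0.0284).

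At 24m no member was called by edgeR, of 57 tested, where 0.084% of all genes were. At an unadjusted p under 0.05 there were 18 members, 15 higher and 3 lower, or 31.6% of those tested, against 11.8% of all tested genes, of which 7.82% were higher and passed so. The median log2 fold change was 0.28 over the tested members and 0.03 over all genes. Values at least 2-fold higher were found for 9 members, against 2.43% of all genes, among them Cxcl10, Ccl8, Ccl7, Cx3cr1, Ccl2, Ccr2, Ccr1 and Il10ra. As at 28m, low members could enter this fit through the age at which they were high. Cxcl10, for example, had 2 to 34 reads in the young mice of that run and 14 to 290 at 24m. How many members entered so, through either age, was not counted at 24m. The part of the filter in these shares was not tested. DESeq2 called 5 members (Ccl5, Ccl8, Ccr7, Cxcl10 and Cx3cl1), where it called 1.4% of its genes, and limma-voom called none. A fit of all 29 libraries called Ccl5 and Cxcl10, and Cxcl10 alone was called against the 6m libraries of the second run (adjusted p = 0.0418). The share of all genes called in these fits was not counted.

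Cxcl10 had 0.11, 0.28 and 1.12 CPM at the lowest, median and highest 6m mouse of the first run and 0.60, 3.15 and 9.38 at 24m. The old group was split, with 5 of 7 mice above every young mouse and 24m replicate 6 at 0.60 inside the young range. It gave a log2 fold change of 2.95 ± 0.65 (adjusted p = 0.121, edgeR), against 2.58 ± 0.35 at 28m. Ccl8 had 0.16, 1.02 and 2.70 CPM at 6m and 0.69, 2.34 and 14.2 at 24m (2.29 ± 0.70, adjusted p = 0.259), the highest values being 13.8 and 14.2 in replicates 2 and 4. Cx3cl1 had medians of 2.83 and 4.01 CPM, with 6 of 7 old mice above every young mouse (0.77 ± 0.20, adjusted p = 0.195). Cxcr4, the receptor of Cxcl12, had medians of 2.98 and 5.14 CPM with 4 of 7 above the 6m range (0.73 ± 0.21, adjusted p = 0.231).

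Several monocyte genes were highest at 24m in replicate 2, the mouse of that age with the highest macrophage marker sum. Ccl2 had medians of 0.72 CPM at 6m and 1.25 at 24m and reached 7.16 in replicate 2 (log2 fold change 1.45 ± 0.53, adjusted p = 0.341, edgeR). Ccl7 reached 7.48 CPM in the same mouse (1.88 ± 0.73, adjusted p = 0.37). The receptor Ccr2 had medians of 3.96 and 9.29 CPM and reached 31.9 (1.27 ± 0.50, adjusted p = 0.376). Cx3cr1 (1.46 ± 0.63, adjusted p = 0.403), Il10ra, the interleukin 10 receptor chain (1.22 ± 0.45, adjusted p = 0.345), and Ccr1 (1.23 ± 0.68, adjusted p = 0.464) were likewise highest in replicate 2. Without that mouse the log2 fold changes were 0.63 for Ccl2, 0.98 for Ccl7, 0.77 for Ccr2, 1.11 for Cx3cr1, 0.84 for Il10ra and 0.03 for Ccr1, but still 2.91 for Cxcl10 and 1.84 for Ccl8. Replicate 2 was the highest 24m mouse in 29 of the 57 members, 50.9%, and in 16.1% of all genes. The part of macrophage content in these values was not tested.

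Members that fell at 28m did not pass the threshold at 24m. Il1r1 had medians of 12.5 and 7.52 CPM (-0.79 ± 0.31, adjusted p = 0.369, edgeR) and Il12rb2 of 4.51 and 3.39 CPM, with 6 of 7 old mice below the young range (-0.51 ± 0.20, adjusted p = 0.369). The log2 fold change at 24m was -0.43 ± 0.65 for Il1rl2, -0.25 ± 0.19 for Il6st, -0.06 ± 0.16 for Il17rd, 0.10 ± 0.10 for Cxcl12 and 0.13 ± 0.15 for Cxcl14. Their adjusted p ran from 0.567 for Il6st to 0.878 for Il17rd.

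The difference of both age effects was tested over all libraries, with both libraries of a 6m mouse taken as separate samples. It passed for 0 of 62 members in edgeR, DESeq2 and limma-voom alike, and edgeR passed 0.0% of all genes. At an unadjusted p under 0.05 there were 6 members, Cxcl12, Il17rd, Cxcl14, Il15ra, Il33 and Il1rl2, or 9.68%, against 12% of all genes. For Cxcl10 the difference of 28m minus 24m was -0.35 ± 0.75 on the log2 scale, for Ccl8 -0.25 ± 0.94 and for Ccl2 0.62 ± 0.98, so these data leave room for differences of more than 1 in either direction. For Il17rd it was -0.69 ± 0.20, for Cxcl12 -0.48 ± 0.13 and for Il1rl2 -1.89 ± 0.82 (adjusted p = 0.398, 0.398 and 0.399). Without 24m replicate 4, whose rho with length was -0.406, Cxcl12 (-0.50), Il17rd (-0.77) and Cxcr5 (1.40) passed at an adjusted p of 0.0389 each, where 12.3% of all genes did.

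The 6m mice, measured in both runs, show how much of the spread belongs to the mouse. Between the 6m libraries of the runs edgeR, DESeq2 and limma-voom called none of 55 members and 0.0% of all genes (edgeR), also with the mouse as a block. At an unadjusted p under 0.05 there was no member without the block, against 2.77% of all genes, and 5 members with it, against 8.17%. Of these Il1rl2 was higher in the second run in 7 of 7 mice (0.61 ± 0.19 on the log2 scale) and Cxcl12 in 5 (0.11 ± 0.05), while Ccl25 (-0.30 ± 0.09), Ccl9 (-0.22 ± 0.08) and Il11ra1 (-0.14 ± 0.06) were higher in 1 (adjusted p = 0.498 each). On the log2 scale the SD between the mice exceeded the SD between the libraries of a mouse in 47 of 55 members, at least 2-fold in 18. The same mouse was highest in both runs in 25 members. No such counts over all genes stand beside these, so they are not read as particular to the members. Cxcl1, a ligand of the neutrophil receptor Cxcr2, differed 20.1-fold between mice in the first run and 14.3-fold in the second, with replicate 2 highest and replicate 5 lowest both times. For Il10ra, Il1r1, Ccl6, Ccr2 and Cxcr7 the mice also kept apart, with an SD between mice 6.63, 5.89, 5.14, 4.57 and 3.37 times that between libraries. Replicate 2 was the highest 6m mouse in 26 of the 57 members in the first run and 27 in the second, where 14.6% and 21.0% of all genes were highest in it, and also had the highest macrophage marker sum in both (242 and 237 CPM). Cxcl1 did not pass at either age (0.18 ± 0.52 at 28m and 0.56 ± 0.52 at 24m).

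**Figure D5:**
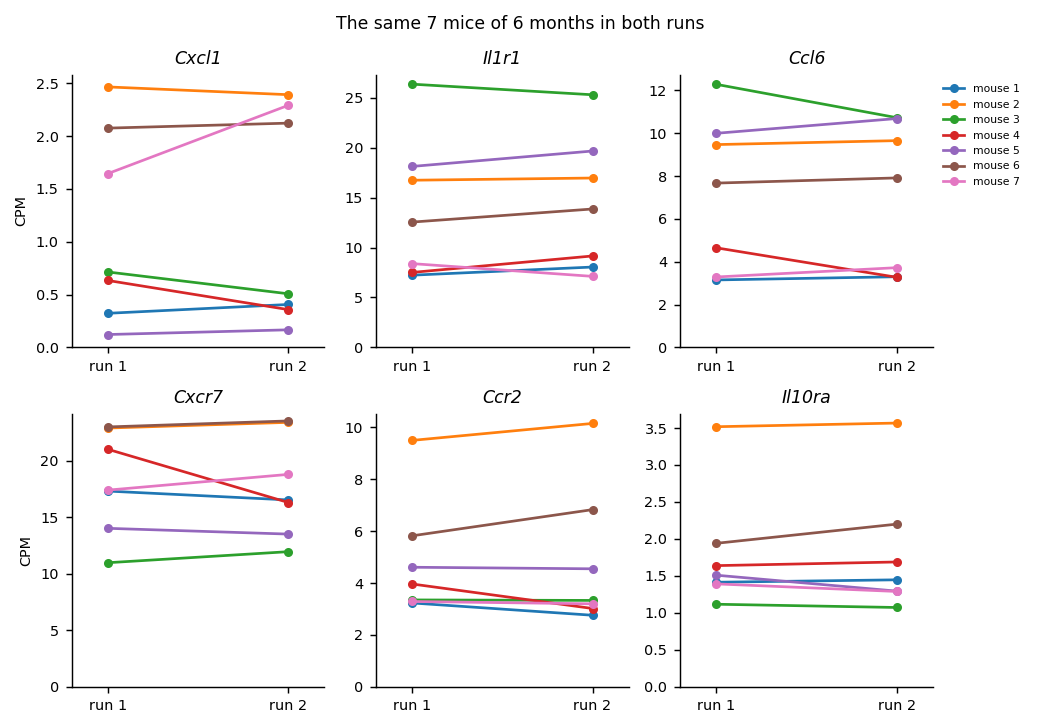
Each line joins the CPM (linear axis from 0) of a 6m mouse in the libraries of both runs, for 6 members with a large spread between mice. Most lines stay nearly level, those of the highest mice keep apart from the lowest, and for Cxcl1 mouse 2 is highest and mouse 5 lowest in both runs.

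A further 30 measured members lay under the filter on low counts of the edgeR fits at both ages and are given by their read counts. Ccl5, a chemokine made by T cells, had 1 to 11 reads in the 6m libraries of the first run, 2 to 75 at 24m, 1 to 6 in those of the second run and 5 to 52 at 28m. Ccl12 had 1 to 10, 0 to 59, 0 to 10 and 5 to 127 reads in the same order, and the interleukin 1 antagonist Il1rn 0 to 2, 0 to 38, 0 to 4 and 0 to 18. The macrophage chemokines Ccl3 (0 to 3 reads at 6m, 0 to 34 at 24m and 0 to 27 at 28m) and Ccl4 (0 to 2, 0 to 12 and 0 to 10) were near 0 in most libraries. Il1b, the main macrophage interleukin 1, had 1 to 15 reads at 6m, 2 to 52 at 24m and 5 to 35 at 28m, and Il6 0 to 4, 3 to 8 and 3 to 12. Il7r, a T cell receptor chain, had 1 to 13 at 6m, 3 to 67 at 24m and 2 to 35 at 28m, and the lymph node receptor Ccr7 0 to 6, 3 to 47 and 1 to 15. The neutrophil ligands Cxcl5 and Cxcl2 had at most 1 and 3 reads at 6m, 16 each at 24m and 41 and 9 at 28m. Ccl17 and Ccl22, ligands of Ccr4, had at most 4 and 8 reads at 6m, 19 each at 24m and 20 and 16 at 28m.

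The others of these 30 reached at most 46 reads anywhere. They were Ccl19 (0 to 29), Il10 (0 to 13), Il12b (0 to 13), Il12rb1 (0 to 12), Il11 (0 to 13), Il5 (0 to 14), Il7 (0 to 13), Il4i1, an amino acid oxidase and no cytokine (1 to 18), Il21r (0 to 46), Il2rb (0 to 43), Il18r1 (0 to 22), Il18rap (0 to 17), Ccr9 (1 to 18), Ccr10 (0 to 14), Cxcr2 (0 to 14), Cxcr3 (0 to 26) and Cxcr6 (0 to 15).

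Some of these were called higher at 28m by fits without that filter. DESeq2 called 26 members, where it called 41.9% of its genes, and edgeR without a filter called 27, where 31.8% of all genes were called. Both included Ccl5 (log2 fold change 2.47 in DESeq2 and 2.38 in unfiltered edgeR), Ccl12 (1.34 and 2.52), Ccl17 (3.65 and 3.38), Cxcl2 (2.44 and 2.25), Il6 (1.75 and 1.66) and Cxcr3 (1.47 and 1.40). Their adjusted p ran from 0.000423 for Ccl5 to 0.0412 for Cxcl2 in DESeq2, and from 0.00627 to 0.0392 for the same members in edgeR. In 28m replicate 7 Ccl12 had 127 reads and Ccl17 20, against 5 to 24 and 0 to 6 in the other 28m mice. Neither fit was run without that mouse. The unfiltered fit also called Cxcl5 (4.35, adjusted p = 0.0257) and Il1f9. Cxcl5 had 41 reads in 28m replicate 7, 0 to 4 in the other 28m mice and 0 to 1 in the 6m libraries of that run. Il1f9, an interleukin 36, had 0 to 3 reads at 28m, 0 in the 6m libraries of that run and 0 to 3 in those of the other. Reads of both were too few for a fold outside that 1 mouse. In the fit of all libraries Ccl5 (adjusted p = 0.00885) and Ccl12 (0.0152) passed the filter and were called, and in limma-voom with the mouse as a block Ccl12 was (0.0478) and Ccl5 was not (0.0575).

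Genes that carry these signals but have other names were read from lists of the pathways. At 28m 32 of 81 listed genes tested passed, against none at 24m (edgeR). Of 10 tested kinases and transcription factors of the JAK-STAT pathway 3 fell and none rose: Jak1 (-0.48 ± 0.13, adjusted p = 0.00708), Jak2 (-0.67 ± 0.14, adjusted p = 0.00161) and Stat5b (-0.53 ± 0.17, adjusted p = 0.0162). Of 14 inhibitors of that pathway 5 fell, Ptpn11, Socs4, Socs6, Socs7 and Pias2, and Pias4 rose. Of 16 adaptors and kinases below the interleukin 1 receptors 5 fell, the kinase Map3k7, the ubiquitin ligases Traf6 and Peli2 and the scaffolds Tab2 and Tab3, and 3 rose, the adaptor Myd88 (0.49 ± 0.12, adjusted p = 0.00433), Irak1bp1 and the protease Casp1. Of 6 tested interleukin 6 relatives 2 fell, Lifr among them, and 1 rose, the cytokine Ctf1 (0.61 ± 0.12, adjusted p = 0.0012). Of 16 other cytokines and receptors Csf1 and Kitl fell.

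Of 8 tested chemokine genes named otherwise, the dendritic cell receptor Xcr1 (1.16 ± 0.39, adjusted p = 0.0245) and the macrophage factor Mif (0.73 ± 0.13, adjusted p = 0.000957) rose and the chemerin receptor Cmklr1 fell (-1.17 ± 0.25, adjusted p = 0.0022). Of 11 genes of receptor signalling and trafficking 4 fell, the receptor kinases Grk5 and Adrbk2, Arrb1 and Dpp4, a protease that trims chemokines (-1.09 ± 0.24, adjusted p = 0.0026), and 3 rose, Arrb2, Gnai2 and Rgs2. The share called ranged from 12.5% to 63.6% by list, around the 47.3% of all genes. With the length trend removed, 18 of the listed genes were called in place of 32, where 37.0% of all genes were called. The part of cell content in these values was not tested.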

How the data were processed

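RNA of whole TA muscle was read as poly-A selected, single-end libraries. The authors aligned reads to mm10 with STAR 2.5.4b and deposited 1 table of raw gene counts, with whether strand was used not stated. Every one of the 29 columns matched a label, and totals were 17633475 to 33499162 counts per library.

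Counts were analysed with edgeR 4.0.16 (filterByExpr, TMM, quasi-likelihood F test, Benjamini-Hochberg adjustment) in R 4.3.3, with limma 3.58.1 and DESeq2 1.42.0 as alternatives. DESeq2 was run with its defaults, which can replace outlying counts in groups as large as these. Fold changes were called at an adjusted p under 0.05, and the SE is the log2 fold change divided by the root of F. Each age was fitted with the 6m libraries of its run, and the difference of age effects in 1 fit of all libraries with the group as the only term. Alternatives were 2 other scalings, filters on low counts, thinning, a length and GC offset, the 6m libraries of the other run, leaving out each mouse and the mouse as a block. P-values of each age comparison measure the spread between mice. Without a block, fits of all libraries and of the 6m runs take both libraries of a 6m mouse as separate samples. With the block, the comparison of the 6m runs measures the spread between libraries of a mouse. Members named with values were those called, changed at least 2-fold, separated between ages, among the 10 highest, or under the count filter. A few items are counted but not reported here. The members and lists were chosen with earlier results of these data known.

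Replicate numbers of the 6m libraries pair the same mouse. Deviations of both libraries of a mouse correlated at 0.218 to 0.814 across genes, and each library matched its own mouse best, while old mice were unpaired. On simulated data edgeR recovered 63% of genes changed by 1 on the log2 scale and 99% of those changed by 2 at 28m, over 13034 genes, and for the difference of age effects 22% and 94%, over 13503 genes. The simulation gave every gene the same fixed dispersion, no length trend and no effect of the mouse. These rates therefore need not hold for members that vary more between mice. Gene positions and lengths came from GENCODE M21 (GRCm38, which is mm10).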

Additional observations from a re-analysis of the deposited data

Results flagged for a closer look

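Single mice far from the rest of their group were sought by Dixon's test at 95% for 56 of the members tested at either age. It singled out 42 of 224 member and group combinations, 18.8%, and 18.7% of the combinations of all genes tested at 28m, so the share among the members was near that of all genes. Chance gives about 1 in 20 where values are normally distributed, and members of 1 library are not independent.

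In 28m replicate 7, which also held the highest macrophage marker sum, the highest values stood apart for Ccl2 (18.9 CPM), Ccl6 (91.2), Ccl7 (15.4), Ccl8 (13.7), Ccl9 (31.9), Ccl24 (3.60), Ccr1 (4.87), Ccr2 (19.5), Il1rl1 (5.25), Il4ra (19.4), Il10ra (4.42) and Il17ra (4.16). In 24m replicate 2, with the highest such sum of its age, these were Ccl2 (7.16 CPM), Ccl6 (29.5), Ccl7 (7.48), Ccr1 (5.81), Cxcl13 (2.86), Il1rl1 (5.01), Il2rg (6.33), Il4ra (18.5) and Il10rb (12.5). The part of macrophage content in these values was not tested.

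In 24m replicate 4 the highest values of Ccl11 (35.5 CPM), Ccl24 (3.67), Ccl25 (4.90), Ccl27a (7.13), Cxcr5 (2.62), Il11ra1 (96.3) and Il17d (3.04) and the lowest of Il6st (93.2) stood apart. Further old mice gave Cxcl1 (3.30 CPM) and Cxcr7 (25.9) in 28m replicate 5 and Il27ra (1.15) in 28m replicate 6. The 6m mice of the first run gave Ccr2 (9.501 CPM) and Il10ra (3.52) in replicate 2, Il34 (3.62, the lowest) in replicate 3, Ccl11 (27.4) and Ccl27a (4.23) in replicate 4 and Ccl7 (1.49) in replicate 6. Those of the second run gave Cx3cr1 (1.89) and Cxcr5 (1.05) in replicate 2, Il33 (2.99, the lowest) in replicate 3 and Cxcl12 (109) in replicate 4.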

How the results depend on the processing

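Values at 28m were followed for the 25 members called or changed at least 2-fold. Under the alternatives 563 kept their direction and side of the threshold, 76 fell short of the threshold, 1 passed it and 2 turned. Those that turned were Il16 with the length and GC trend removed (log2 fold change 0.018) and Ccr1 without 28m replicate 7 (-0.0066). Ccr1 ran up to 1.27 with single mice left out. Other members that passed or turned in some fits, such as Il1rl1, are not in this count. At 24m, for the 9 members changed at least 2-fold, 223 values kept both and 4 passed the threshold. Of the members 21 were called at 28m, 13 against the first-run 6m libraries, 17 in limma-voom and 14 with the mouse as a block. DESeq2 called 26 with 7 gained, a fit without a filter on low counts 27 with 8 gained, and fits without 1 mouse 16 to 21. The share of all genes called in limma-voom, with or without the block, was not counted. Of the pathway genes 32 were called at 28m, 18 against the first-run 6m libraries, 18 with the length and GC trend removed, 26 with the replicate block and 26 to 36 with 1 mouse left out. At 24m the counts of 0 became 1 member against the 6m libraries of the second run, 5 members and 3 pathway genes in DESeq2, and 2 members and 1 pathway gene in a fit of all libraries, and stayed at 0 with the block, with each mouse left out and, an alternative chosen after seeing the data, without both replicate 4 libraries. The difference of age effects gave 0 to 3 members with 1 mouse left out, the 3 arising without 24m replicate 4, and 0 with the block, as did the comparison of the 6m runs. The cause was not tested. Members under about 10 reads in every library were not measurable at this depth.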
